A study of Homo sapiens with 10 samples.

Results

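The Polycomb repressive complex genes are 10 of the 18144 genes listed for PC-3 spheroids. They were chosen by symbol and comprise EZH1, EZH2, EED, SUZ12, RBBP7 and JARID2 of Polycomb repressive complex 2 (PRC2), and BMI1, RING1, RNF2 and CBX2 of Polycomb repressive complex 1 (PRC1). The family was picked because EZH2 was the lowest of the study's EMT markers in the treated libraries of day 3, so the low EZH2 values in treated spheroids are the reason for the choice and are given as a description. PC-3 is a human prostate cancer cell line with a wild-type (WT) genotype in the labels, grown here as 3D spheroids. RNA was sequenced from spheroids without drug on days 0, 3 and 7, from spheroids given topotecan as 1 conventional bolus (CONV-TOPO) on days 3 and 7, and from spheroids given topotecan in daily fractions as extended exposure (EE-TOPO, also METRO-TOPO) on days 3 and 7. Topotecan is an inhibitor of DNA topoisomerase I. The series text gives a longer exposure, in weeks, whereas the labels give day 7, which is used throughout. The 3 samples of day 1 were not analysed here. Each treatment and day had 1 library, so there were no replicates, and every interval given below is a 95% interval of counting error alone.

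Polycomb proteins keep developmental genes silent through 2 histone marks. PRC2 methylates lysine 27 of histone H3, with EZH2 as the main catalytic subunit of dividing cells and EZH1 as its paralogue in resting cells. PRC1 ubiquitinates histone H2A and compacts chromatin, and its CBX subunits bind the mark that PRC2 makes. EZH2 is known for high expression in advanced prostate cancer.

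Values are CPM, read counts scaled to a common library total, divided by a trimmed-mean scaling factor, called scaled CPM below. The depth estimated from the steps of low values was 15028103 to 22477972 reads per library. The PC-3 markers KRT8, KRT18, VIM, CD44 and EPCAM were all expressed, with the lowest value of any of them at 138 scaled CPM (EPCAM in CONV-TOPO on day 3). TMPRSS2, listed as low or absent in PC-3, lay at 68.4 to 156 scaled CPM, which goes against that listing. The libraries of treated spheroids on day 7 stood apart from the rest. Gene span, transcript length and GC content accounted for 45.0% of the variance of log2 ratios between CONV-TOPO and untreated spheroids on day 7 and for 42.0% with EE-TOPO, against 14.1% and 26.4% on day 3 and 6.36% to 15.9% between untreated libraries. On day 7 the longer transcripts had the lower ratios (Spearman rho -0.64 with CONV-TOPO and -0.60 with EE-TOPO, across 11115 genes). On day 3 the sign was the opposite, with higher ratios for longer transcripts (rho 0.32 with CONV-TOPO and 0.51 with EE-TOPO). For the members, ratios to untreated are therefore also given with this trend removed where that changed their direction or a 1.5-fold call. For other genes such values are given for part of them only. Whether the trend comes from RNA quality was not tested. In bulk RNA, fewer cells of a type and less RNA per cell cannot be told apart.

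EZH2 (chr7:148807383-148884292, minus strand, hg38) lay at 29.3 scaled CPM in untreated spheroids on day 0, 36.5 on day 3 and 24.5 on day 7. It lay at 22.8 with CONV-TOPO on day 3 and 20.5 on day 7, and at 22.3 and 15.1 with EE-TOPO. All 4 treated libraries were below all 3 untreated ones, and the untreated library of day 3 was the highest of the series. The counting interval of untreated day 7 (22.4 to 26.8) overlapped those of CONV-TOPO on day 3 (20.6 to 25.2) and day 7 (18.2 to 23.0). It also overlapped that of EE-TOPO on day 3 (20.5 to 24.2).

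Relative to untreated spheroids of equal age, EZH2 stood at 0.625-fold (0.550 to 0.709) under CONV-TOPO, and under EE-TOPO at 0.611-fold (0.546 to 0.683), on day 3. On day 7 it stood at 0.837-fold (0.722 to 0.968) and 0.617-fold (0.522 to 0.728). These values chose the family and carry no test. With the mean of the 3 untreated libraries as the baseline, the day-3 values were 0.768-fold and 0.751-fold, and untreated EZH2 itself differed 1.49-fold between its lowest and highest library. With the trend removed the log2 ratios were -0.63 and -0.66 on day 3 and -0.13 and -0.55 on day 7.

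The 300 bases of RefSeq promoter sequence (GRCh38.p14, 250 before to 50 after the start, written 5′ to 3′ on the gene's strand) are shown for EZH2, EZH1 and SUZ12 because these 3 of the 9 members with a matched promoter hold an E2F motif. Capitals mark letters that match a searched motif on either strand.
EZH2 (chr7:148884242-148884541, minus strand): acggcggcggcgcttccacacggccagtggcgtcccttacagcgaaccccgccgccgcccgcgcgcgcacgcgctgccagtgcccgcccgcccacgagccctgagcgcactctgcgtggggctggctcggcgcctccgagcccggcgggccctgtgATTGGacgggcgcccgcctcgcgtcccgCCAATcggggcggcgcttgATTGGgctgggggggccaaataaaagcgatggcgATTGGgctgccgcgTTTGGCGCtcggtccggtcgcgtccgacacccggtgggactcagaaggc
EZH1 (chr17:42744991-42745290, minus strand): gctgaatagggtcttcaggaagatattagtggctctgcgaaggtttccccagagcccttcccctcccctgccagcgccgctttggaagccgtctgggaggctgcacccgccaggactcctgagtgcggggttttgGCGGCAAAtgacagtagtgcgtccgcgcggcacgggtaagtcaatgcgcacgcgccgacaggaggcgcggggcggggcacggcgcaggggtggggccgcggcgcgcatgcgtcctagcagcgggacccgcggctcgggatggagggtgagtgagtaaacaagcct
SUZ12 (chr17:31936757-31937056, plus strand): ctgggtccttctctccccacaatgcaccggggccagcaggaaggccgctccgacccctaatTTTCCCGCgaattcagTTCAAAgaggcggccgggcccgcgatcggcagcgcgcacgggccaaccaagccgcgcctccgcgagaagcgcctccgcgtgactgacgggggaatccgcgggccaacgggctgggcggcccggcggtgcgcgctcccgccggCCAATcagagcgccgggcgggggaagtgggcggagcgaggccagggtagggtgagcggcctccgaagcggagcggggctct

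The E2F motif was searched as TTTCCCGC, TTTGGCGC, TTTCGCGC or TTTGCCGC, and 3.31% of 35116 promoters of the same length held at least 1. EZH2 held TTTGGCGC just inside its start, SUZ12 held TTTCCCGC and EZH1 held TTTGCCGC on the opposite strand. The CCAAT motif, found in 34.6% of promoters, matched 4 times in EZH2, and 3.26% of promoters held 3 or more matches. SUZ12, EED, RBBP7 and JARID2 held 1 CCAAT each. The cell-cycle homology letters TTTGAA or TTCGAA matched in SUZ12 alone of the 9, against 16.4% of promoters. None of these matches overlapped another. Of the 3 genes with E2F letters, EZH2 and SUZ12 lay below all untreated libraries in all 4 treated ones, as did 6.43% of all genes. SUZ12 did so by little on day 3, and with library totals this held for EZH2 but not for SUZ12. EZH1 was instead highest with CONV-TOPO on day 3. A match is a description of letters only.

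**Figure D1:**
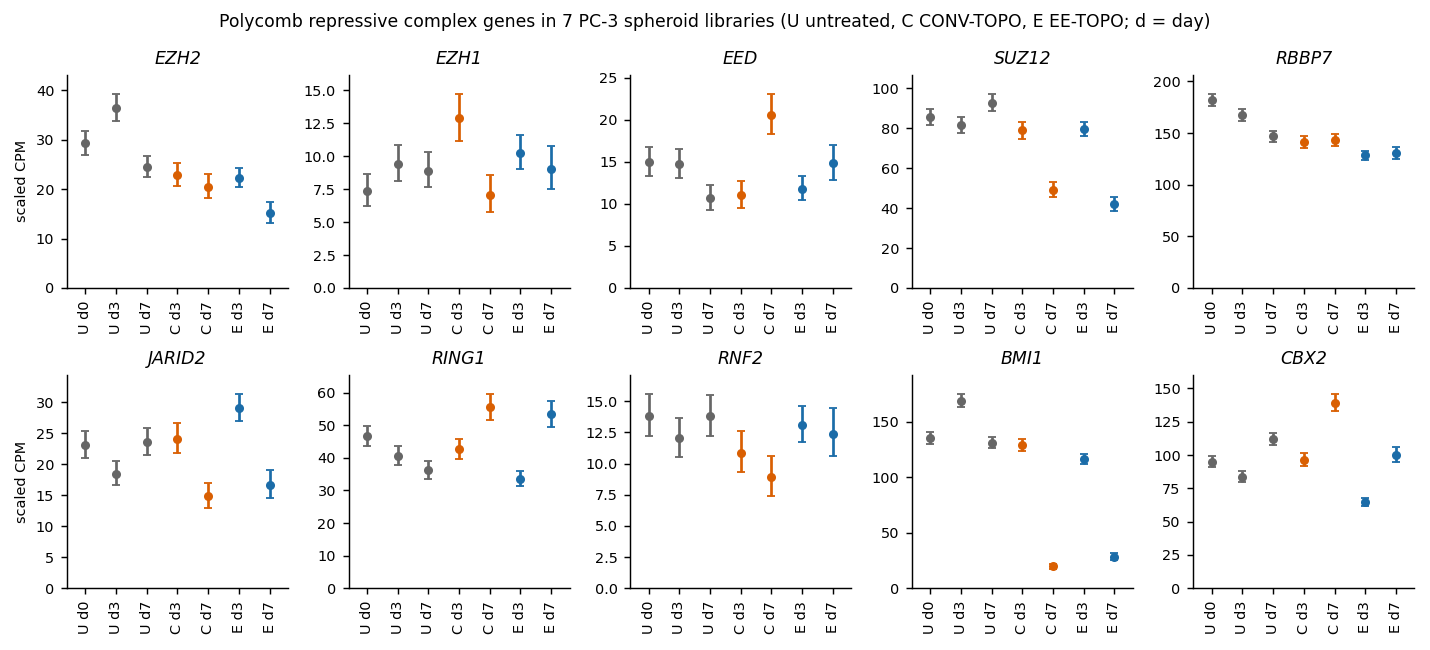
Scaled CPM of the 10 Polycomb repressive complex genes in each of the 7 libraries (x axis, U untreated, C CONV-TOPO, E EE-TOPO, d day). Points are single libraries and bars are 95% Poisson intervals, with EZH2 between 15.1 and 22.8 in treated libraries and between 24.5 and 36.5 in untreated ones.

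EZH1 (chr17:42700275-42745041, minus strand), the alternative catalytic subunit, was the lowest member per kilobase of transcript. It lay at 7.36, 9.41 and 8.89 scaled CPM in untreated spheroids on days 0, 3 and 7, at 12.9 and then 7.10 under CONV-TOPO (days 3 and 7), and at 10.2 and then 9.03 under EE-TOPO. Both treated libraries of day 3 were above all untreated ones, while on day 7 the groups overlapped. The day-3 ratio with CONV-TOPO was 1.37 (1.12 to 1.68), or 1.51 against the mean of the untreated libraries, and with EE-TOPO it was 1.09 (0.897 to 1.32), an interval that includes 1.

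Per kilobase of transcript, EZH2 exceeded EZH1 in every library. The ratio of EZH2 to EZH1 was 6.95 (5.78 to 8.40), 6.78 (5.76 to 8.005) and 4.82 (4.05 to 5.75) in untreated spheroids on days 0, 3 and 7. It was 3.09 (2.61 to 3.68) with CONV-TOPO on day 3 and 5.05 (4.02 to 6.39) on day 7. It was 3.802 (3.27 to 4.43) with EE-TOPO on day 3 and 2.93 (2.33 to 3.70) on day 7. Both regimens on day 3 and EE-TOPO on day 7 lay below every untreated library, whereas CONV-TOPO on day 7 lay among them. The low EZH2 values of day 3 that chose the family enter these ratios, which are descriptions only.

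The PRC2 core pairs the catalytic subunit with EED, which reads trimethylated lysine 27, SUZ12, the scaffold, and a histone-binding RBBP protein. SUZ12 (chr17:31937007-32001039, plus strand) lay at 85.7, 81.8 and 92.9 scaled CPM in untreated spheroids on days 0, 3 and 7. With CONV-TOPO it lay at 79.0 on day 3 and 49.2 on day 7, and with EE-TOPO at 79.8 and 41.9. On day 3 both ratios had intervals that include 1, at 0.966 (0.897 to 1.04) and 0.975 (0.913 to 1.04), and their direction was not settled, since the log2 ratio turned to 0.0089 under CONV-TOPO with the trend removed and to 0.037 under EE-TOPO with library totals. On day 7 SUZ12 stood at 0.530-fold (0.485 to 0.578) under CONV-TOPO, and under EE-TOPO at 0.450-fold (0.409 to 0.495). Its transcript has 38.2% GC and 4495 bases, and with the trend removed its day-7 log2 ratios moved from -0.92 and -1.15 to -0.39 and -0.62.

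EED (chr11:86244384-86278811, plus strand) went the other way between days. It lay at 14.9, 14.7 and 10.7 scaled CPM in untreated spheroids on days 0, 3 and 7, at 11.04 and then 20.6 under CONV-TOPO (days 3 and 7), and at 11.8 and then 14.8 under EE-TOPO. CONV-TOPO on day 7 was the highest library and untreated day 7 the lowest. Both regimens on day 3 and EE-TOPO on day 7 lay inside the untreated range. The day-3 ratios were 0.750 (0.620 to 0.906) and 0.803 (0.680 to 0.948), and the day-7 ratios were 1.93 (1.61 to 2.31) and 1.39 (1.14 to 1.69). EED kept these directions with the trend removed (log2 0.90 and 0.44 on day 7). The untreated library of day 7, the baseline of that ratio, was itself at 0.715-fold (0.597 to 0.856) of day 0.

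Per kilobase, EZH2 to EED stood between 1.48 and 1.95 in the untreated libraries and the treated libraries of day 3. On day 7 it stood at 0.784 (0.665 to 0.924) with CONV-TOPO and 0.803 (0.657 to 0.981) with EE-TOPO, so that EED exceeded EZH2 in those libraries alone.

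RBBP7 (chrX:16844341-16870363, minus strand), a histone chaperone also found in other chromatin complexes, was the most abundant member per kilobase. It lay at 182, 168 and 147 scaled CPM in untreated spheroids on days 0, 3 and 7, at 141 and then 143 under CONV-TOPO (days 3 and 7), and at 129 and then 131 under EE-TOPO. Every treated library was below every untreated one, by little on day 7, where the ratios were 0.975 (0.922 to 1.03) and 0.889 (0.838 to 0.944). The end of RBBP7 overlaps TXLNG on the opposite strand by 180 bases, which the counting could not separate if it ignored strand. Its paralogue RBBP4, which can take its place in PRC2, lay between 127 and 156 scaled CPM. The per-kilobase ratio of RBBP7 to RBBP4 stayed between 3.27 and 4.11.

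JARID2 (chr6:15246069-15522043, plus strand), an accessory subunit that helps recruit PRC2, also changed direction between days. It lay at 23.2, 18.5 and 23.6 scaled CPM in untreated spheroids on days 0, 3 and 7, at 24.2 and then 14.8 under CONV-TOPO (days 3 and 7), and at 29.1 and then 16.7 under EE-TOPO. The treated libraries of day 3 were above all untreated ones and those of day 7 below all of them. The ratios were 1.30 (1.13 to 1.51) and 1.57 (1.38 to 1.79) on day 3, and 0.628 (0.532 to 0.740) and 0.709 (0.602 to 0.832) on day 7. JARID2 has the longest transcript and span of the members (6003 bases and 275975 bases, against medians of 3379 and 29468 over all genes), and its day-7 log2 ratios became -0.19 and 0.03 with the trend removed. On day 3 the EE-TOPO ratio of 1.57 became 1.28 with the trend removed and 1.35 against the mean of the untreated libraries, both under 1.5-fold.

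**Figure D2:**
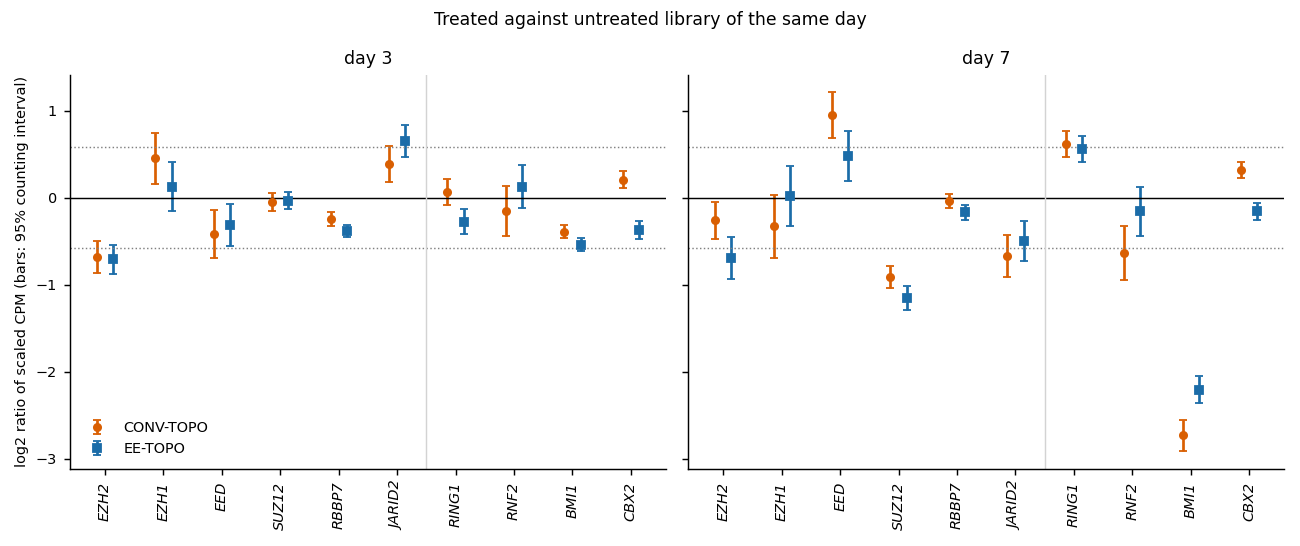
Log2 ratio of scaled CPM (y axis) of each treated library to the untreated library of the same day, for PRC2 genes left and PRC1 genes right of the grey line. Bars are 95% counting intervals and dotted lines mark 1.5-fold, which EZH2 crossed on day 3 with both regimens and BMI1 passed furthest on day 7.

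RING1 and RNF2 encode the alternative ubiquitin ligases of PRC1. RING1 (chr6:33208500-33212716, plus strand) lay at 46.6, 40.7 and 36.2 scaled CPM in untreated spheroids on days 0, 3 and 7, at 42.6 and then 55.5 under CONV-TOPO (days 3 and 7), and at 33.6 and then 53.4 under EE-TOPO. On day 7 both treated libraries were above all untreated ones, with ratios of 1.53 (1.39 to 1.70) and 1.48 (1.33 to 1.64), but the log2 ratios turned to -0.17 and -0.25 with the trend removed. RING1 has a short transcript of 1741 bases with 61.6% GC.

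RNF2 (chr1:185045558-185102604, plus strand) lay at 13.8, 12.0 and 13.8 scaled CPM in untreated spheroids on days 0, 3 and 7, at 10.9 and then 8.90 under CONV-TOPO (days 3 and 7), and at 13.1 and then 12.4 under EE-TOPO. The EE-TOPO values lay within the untreated range and the CONV-TOPO values below it. The CONV-TOPO ratio on day 7 was 0.645 (0.519 to 0.798), but 0.870 with the trend removed and 0.675 against the mean of the untreated libraries, both short of 1.5-fold. The EE-TOPO ratio was 0.897 (0.736 to 1.09), which turned to a log2 ratio of 0.28 with the trend removed. The per-kilobase ratio of RNF2 to RING1 was 0.151, 0.151 and 0.195 in untreated spheroids, 0.130 and 0.0820 with CONV-TOPO on days 3 and 7, and 0.1997 and 0.118 with EE-TOPO. RING1 thus exceeded RNF2 in all 7 libraries, and the day-7 treated libraries held the lowest ratios.

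CBX2 (chr17:79778148-79787984, plus strand), a chromodomain subunit that binds methylated lysine 27, had the largest difference between the regimens of the members, averaged over both days. It lay at 94.95, 83.8 and 112 scaled CPM in untreated spheroids on days 0, 3 and 7, at 96.6 and then 139 under CONV-TOPO (days 3 and 7), and at 64.8 and then 100.4 under EE-TOPO. CONV-TOPO was above the untreated library of the same day, at 1.15-fold (1.08 to 1.24) and 1.25-fold (1.17 to 1.32), and EE-TOPO was below it, at 0.773-fold (0.721 to 0.829) and 0.897-fold (0.838 to 0.960). The CONV-TOPO value of day 3 and the EE-TOPO value of day 7 lay inside the untreated range. Against CONV-TOPO, EE-TOPO stood at 0.671-fold (0.625 to 0.720) on day 3, and then at 0.720-fold (0.672 to 0.772) on day 7. With the trend removed the log2 ratios between regimens were -0.52 and -0.50. RBBP7 was also lower with EE-TOPO than with CONV-TOPO on both days, at 0.909-fold (0.861 to 0.959) and 0.912-fold (0.855 to 0.972), and RNF2 was higher, at 1.21-fold (1.00 to 1.46) and 1.39-fold (1.098 to 1.77).

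BMI1 (chr10:22321099-22331485, plus strand), the PCGF subunit of canonical PRC1, lay at 136, 169 and 131 scaled CPM in untreated spheroids on days 0, 3 and 7. With CONV-TOPO it lay at 129 on day 3 and 19.8 on day 7, and with EE-TOPO at 116 and 28.4. All 4 treated libraries were below the untreated ones, and the 2 of day 7 were far below the rest, with ratios of 0.151 (0.133 to 0.170) and 0.217 (0.194 to 0.241). The counting interval of CONV-TOPO on day 3 (123.6 to 134.7) overlapped that of untreated day 7 (126.2 to 136.3). With library totals in place of the trimmed mean, which moved the median log2 ratio of all genes on day 7 to -0.28 and -0.25, the day-7 ratios of all members moved down by the same step.

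The day-7 values of BMI1 moved with a second gene at the same place. COMMD3-BMI1 (chr10:22316383-22331486, plus strand) is a readthrough gene that joins the neighbouring COMMD3 to BMI1 and covers all 10387 bases of BMI1 on the same strand. It was listed at 1.90, 4.45 and 1.45 scaled CPM in untreated spheroids on days 0, 3 and 7, at 1.52 with CONV-TOPO and 0.639 with EE-TOPO on day 3, but at 54.4 and 46.2 on day 7. Its share of the summed CPM of both genes was 0.546% to 2.56% in 5 libraries, 73.3% with CONV-TOPO on day 7 and 61.9% with EE-TOPO on day 7.

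Summed over both genes, the locus lay at 137, 174 and 133 scaled CPM in untreated spheroids on days 0, 3 and 7, at 131 and then 74.2 under CONV-TOPO (days 3 and 7), and at 117 and then 74.6 under EE-TOPO. The day-7 ratios of the sum were 0.560 (0.521 to 0.601) and 0.562 (0.523 to 0.605), in place of 0.151 and 0.217 for BMI1 alone. Whether more of the transcripts began at COMMD3 or the counting assigned shared reads differently was not tested. COMMD3 itself, the first part of the readthrough, stood at 1.19-fold (1.05 to 1.34) and 1.18-fold (1.04 to 1.34) of untreated on day 7, directions that turned with the trend removed (log2 -0.31 and -0.29), with library totals (-0.024 and -0.0035) and against the mean of the untreated libraries (-0.10 and -0.11).

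**Figure D3:**
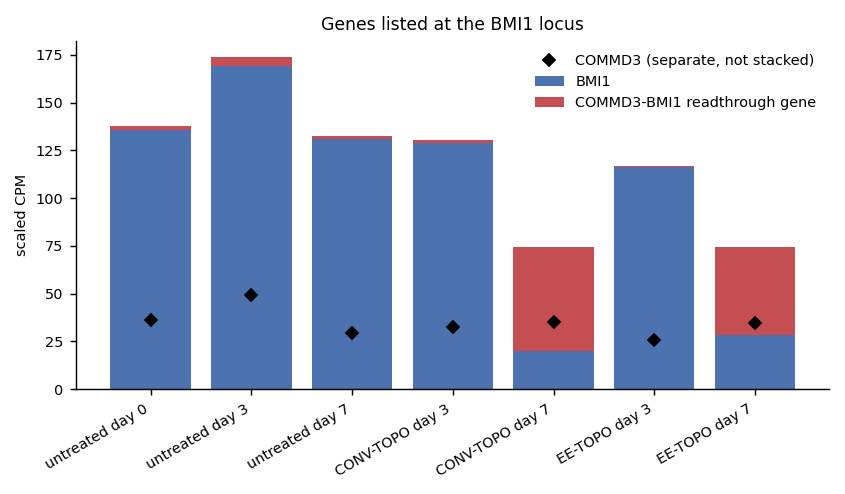
Scaled CPM (y axis) listed for BMI1 and for the readthrough gene COMMD3-BMI1, stacked, in each of the 7 libraries, with COMMD3 as diamonds. The readthrough gene takes 73.3% and 61.9% of the stack in the treated libraries of day 7 and at most 2.56% elsewhere.

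The canonical transcripts of the pair (GENCODE 44) share 8 identical exons and 1000 bases, which are 28.2% of the 3540 exon bases of BMI1 and 70.5% of the 1419 of COMMD3-BMI1. The exons used for the deposited counts are not stated. The deposited coordinates end BMI1 at 22331485 and COMMD3-BMI1 at 22331486, so the shared part in the counting may differ from these shares. The 30 bases at the join into the first shared exon, which starts at chr10 position 22326431, are shown because only the lower-case 15 bases before the join tell the transcripts apart there. Capitals mark the 15 bases of the shared exon, which is exon 2 of BMI1 and exon 6 of COMMD3-BMI1.
BMI1: ggctgctctttccggGATTTTTTATCAAGC
COMMD3-BMI1: atggaacaattacagGATTTTTTATCAAGC

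Taken one treatment and day at a time, 1 member was at least 1.5-fold lower than untreated with CONV-TOPO on day 3 (EZH2), where 2.75% of 11321 genes with at least 5 CPM on average were, and 0 were as much higher (3.37% of genes). With EE-TOPO on day 3, EZH2 was lower (5.31% of genes) and JARID2 higher (6.19%). On day 7 with CONV-TOPO, SUZ12, JARID2, BMI1 and RNF2 were lower (21.9%) and EED and RING1 higher (22.1%). On day 7 with EE-TOPO, EZH2, SUZ12 and BMI1 were lower (23%) and 0 were higher (22.7%). Because EZH2 chose the family from these contrasts, nothing is read from the counts. The members behind a count depended on the setting. Against the mean of the untreated libraries, the 1 member for CONV-TOPO on day 3 was EZH1, as higher, in place of EZH2, as lower. With library totals, CONV-TOPO on day 7 lost RING1 and gained EZH1, as lower. Between untreated libraries 0 members differed by 1.5-fold. The background was 3.29% lower and 5.83% higher on day 3 against day 0, 2.57% and 4.97% on day 7 against day 0, and 4.54% and 4.23% on day 7 against day 3.

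All 4 treated libraries lay below the 3 untreated ones for EZH2, SUZ12, RBBP7 and BMI1 (6.43% of all genes), and above them for 0 members (4.53%). In each of these 4 genes some counting intervals of treated and untreated libraries overlapped. Under library totals without the trimmed-mean factor, this count was 2, for EZH2 and RBBP7. On day 3 alone the same 4 genes were below (21.3%) and EZH1 and JARID2 above (14.5%), and on day 7 alone those 4 genes and JARID2 were below (35.5%) and RING1 above (32.7%).

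**Figure D4:**
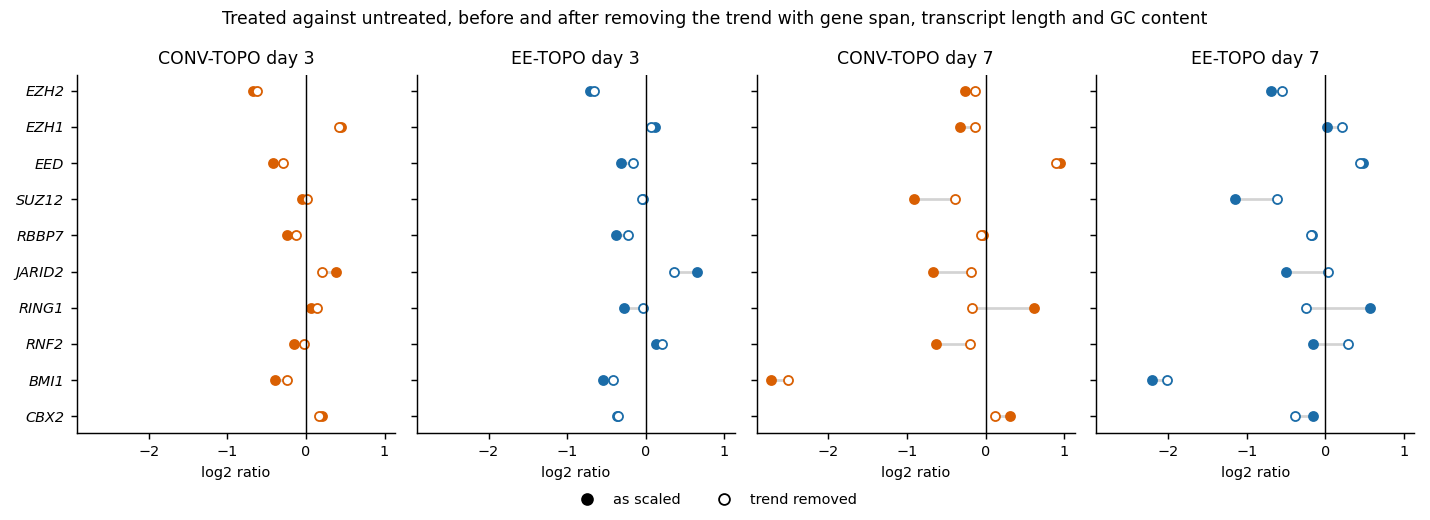
Log2 ratio to the untreated library of the same day (x axis) for each member, as scaled (filled) and with the trend on gene span, transcript length and GC content removed (open). On day 7 RING1 crosses 0 in both regimens and JARID2 and RNF2 do so with EE-TOPO, whereas BMI1 stays at -2.51 and -2.01 and EED at 0.90 and 0.44.

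Across days, limma with Benjamini-Hochberg adjustment over 14906 genes called 0 genes at an adjusted p under 0.05 for EE-TOPO over untreated, CONV-TOPO over untreated, or the regimens with each other (0% in each). At an unadjusted p under 0.05 it gave 528 genes (3.54%), 257 (1.72%) and 139 (0.933%). These were 1.18% of genes as lower and 2.36% as higher with EE-TOPO, and 0.617% and 1.11% with CONV-TOPO. No p is given for a member in either contrast with untreated, since the choice of EZH2 had used those libraries. Between regimens 0 members were among them (0.235% of genes lower and 0.698% higher). The spread in this fit is the change of a treatment's effect between days 3 and 7, and nothing states that the libraries came from separate cultures.

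Between regimens, which did not choose the family, 0 members reached 1.5-fold on day 3 (2.08% of genes lower and 2.35% higher) or on day 7 (3% and 3.2%). EZH2 was level on day 3, at 0.978-fold (0.856 to 1.12) of CONV-TOPO, and lower with EE-TOPO on day 7, at 0.738-fold (0.614 to 0.885). Across both days its mean log2 difference was -0.22 (SE 0.26, limma adjusted p = 1.00, 95% interval -0.86 to 0.41). CBX2 had the largest mean difference of the members at log2 -0.52 (SE 0.22, limma unadjusted p = 0.054, adjusted p = 1.00), and was lower with EE-TOPO on 2 of 2 days. When limma was fitted on the 4 treated libraries alone, CBX2 passed with an adjusted p of 0.033, among 110 genes called (0.738%), and its adjusted p ran from 0.033 to 1.00 over the alternatives. That fit has fewer residual degrees of freedom than the main one. Most of its 19.7 total degrees of freedom were borrowed from the spread of all genes, not from replicates.

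**Figure D5:**
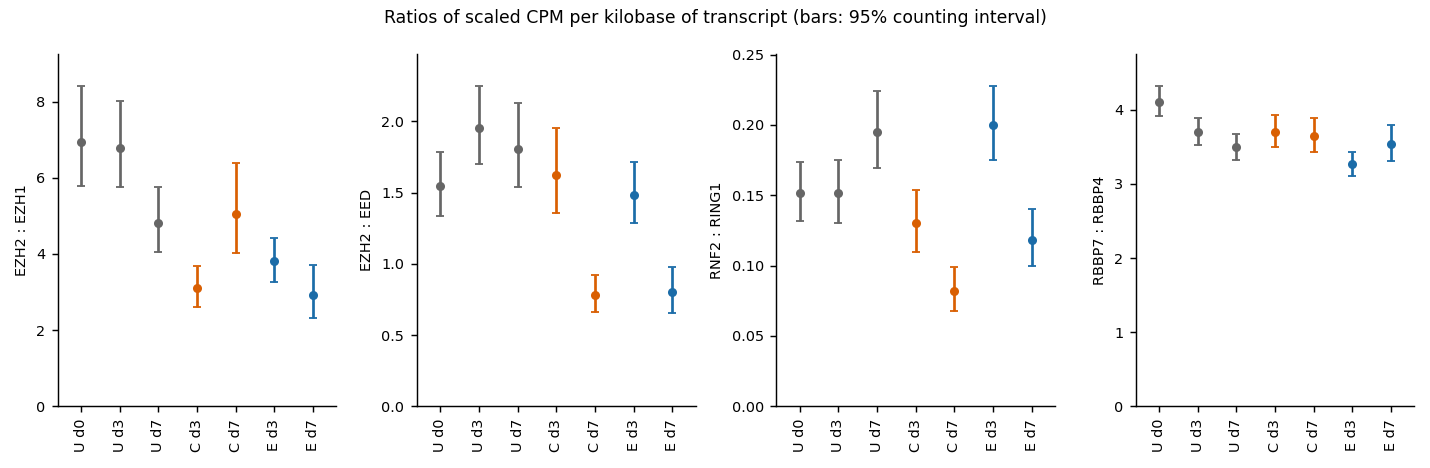
Ratios of scaled CPM per kilobase of transcript (y axes) for EZH2 to EZH1, EZH2 to EED, RNF2 to RING1 and RBBP7 to RBBP4 in each library (x axis, labels as above), with 95% counting intervals. EZH2 to EED is 0.784 and 0.803 in the treated libraries of day 7 and at least 1.48 in the others.

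Of 46 other Polycomb genes listed from known complexes, 43 passed the filter on low values. Their median log2 ratio to untreated was 0.08 with CONV-TOPO and 0.06 with EE-TOPO on day 3 (all genes -0.029 and -0.061), and -0.032 and 0.0059 with the trend removed. On day 7 it was -0.14 and -0.26 (all genes -0.0012 and -0.0059), 0.067 and -0.038 with the trend removed, and -0.42 and -0.51 with library totals. With 0 called lower and 0 higher for CONV-TOPO on day 3, 2 and 4 for EE-TOPO, 11 and 4 for CONV-TOPO on day 7 and 10 and 2 for EE-TOPO, their 1.5-fold counts are to be read against the backgrounds above. By limma 0 of the 43 passed an unadjusted p of 0.05 in any of the 3 comparisons.

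Their lowest mean log2 ratios on day 3 were those of PCGF1 and PCGF2, paralogues of BMI1, and PHC1, a canonical PRC1 subunit. PCGF1 lay at 10.9 scaled CPM in untreated spheroids, 7.32 with CONV-TOPO and 6.72 with EE-TOPO. The highest ratios were those of KDM6A, a demethylase of lysine 27, MGA, a variant PRC1 subunit, and MBD5, a partner of the BAP1 deubiquitinase. KDM6A lay at 17.8 scaled CPM in untreated spheroids, 23.9 with CONV-TOPO and 28.2 with EE-TOPO.

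On day 7 the lowest mean log2 ratios were those of SCML2, ASXL2 and BCOR. SCML2, a canonical PRC1 partner, had log2 ratios of -1.39 and -1.65, and -0.89 and -1.13 with the trend removed. ASXL2, a cofactor of BAP1, had -1.15 and -1.37, but -0.12 and -0.28 with the trend removed. BCOR had -0.88 and -1.36, and -0.50 and -0.95 with the trend removed. The highest ratios were those of CBX8, a paralogue of CBX2, PCGF1 and PHF1, a PRC2 accessory subunit. CBX8 had log2 ratios of 0.91 and 0.93, and 0.62 and 0.60 with the trend removed. PHF1 had 0.71 and 0.54, but 0.14 and -0.063 with the trend removed. PCGF1 stood among the lowest on day 3 and the highest on day 7, but untreated PCGF1 itself lay at 8.49, 10.9 and 6.31 scaled CPM on days 0, 3 and 7, a range that holds every treated value except the 14.9 of CONV-TOPO on day 7. It had log2 ratios of 1.24 and 0.60 on day 7 that became 0.45 and -0.17 with the trend removed.

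EZH2 is known as a target of E2F factors in dividing cells, and 15 DNA replication genes were low beside it on day 3. Their median log2 ratio to untreated was -0.42 with CONV-TOPO, with 14 of 15 lower, and -0.47 with EE-TOPO, with 15 of 15 lower. The background for these medians is the all-gene medians given above beside the other Polycomb genes. On day 7 it was 0.10 and -0.0028, with 5 and 8 of 15 lower, and -0.18 and -0.25 with library totals, while EZH2 was below untreated under both. The untreated library of day 7, the baseline of these ratios, was itself below day 0 for every replication gene except RFC4. MCM5 lay at 56.7 scaled CPM in untreated spheroids on day 0 and 38.6 on day 7, and FEN1 at 89.2 and 69.5. A list of 15 mitosis genes had medians of -0.09 and 0.39 on day 3 and -0.15 and -0.18 on day 7. The untreated library of day 3 was itself low in mitosis genes, with a median log2 ratio to day 0 of -0.86 and 14 of 15 lower, and the same baseline enters every day-3 ratio. E2F1 lay at 59.9 scaled CPM in untreated spheroids on day 3, 40.0 with CONV-TOPO and 45.0 with EE-TOPO. On day 7 E2F1 went the other way, at 45.8 untreated, 69.8 with CONV-TOPO and 64.7 with EE-TOPO. Its day-7 log2 ratios of 0.61 and 0.50 became 0.09 and -0.04 with the trend removed. The part of proliferation in the EZH2 values was not tested.

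Among 8 measured genes known as repressed by EZH2 in prostate cancer, 5 were higher with CONV-TOPO and 4 with EE-TOPO on day 3, and 5 were higher with either regimen on day 7, or 1 and 2 with library totals. SLIT2, an axon guidance ligand, lay at 67.4 scaled CPM in untreated spheroids on day 3, 99.4 with CONV-TOPO and 133 with EE-TOPO, but on day 7 at 126 untreated, 46.0 with CONV-TOPO and 36.1 with EE-TOPO. Untreated SLIT2 lay at 116 on day 0, so that the CONV-TOPO value of day 3 was inside the untreated range and both day-7 values were below it. CDKN1C, a cyclin-dependent kinase inhibitor, lay at 18.6 in untreated spheroids on day 7, 34.1 under CONV-TOPO and 47.1 under EE-TOPO. It had log2 ratios of 0.88 and 1.34 that became 0.02 and 0.45 with the trend removed. CDH1, which encodes E-cadherin, lay at 213 untreated, 272 with CONV-TOPO and 297 with EE-TOPO on day 3, against 241 and 286 in untreated spheroids on days 0 and 7, a range that holds the CONV-TOPO value.

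The HOX genes, classic Polycomb targets, were mostly low, and 13 of 39 reached 5 CPM on average. Their median log2 ratio was 0.17 with CONV-TOPO and -0.26 with EE-TOPO on day 3, and 0.14 and 0.22 on day 7, where it turned to -0.14 and -0.021 with library totals and to -0.17 and -0.29 with the trend removed. The lowest mean log2 ratio on both days was that of HOXA9, which was not among the low genes by level. HOXA9 lay at 63.8 scaled CPM in untreated spheroids, 55.8 with CONV-TOPO and 34.4 with EE-TOPO on day 3, and at 77.2, 52.4 and 42.5 on day 7. The largest mean ratio belonged to HOXB6 on day 3 (5.72 untreated, 8.84 and 10.2) and to HOXB9 on day 7 (6.504 untreated, 10.6 and 12.8). By limma, 0 HOX genes passed the adjusted threshold in any comparison, and 1 had an unadjusted p under 0.05, as lower with EE-TOPO.

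Over the 7 libraries, the genes whose log2 level followed EZH2 most closely among 11320 were SUPT6H (Pearson r 0.98), a transcription elongation factor, SSB (0.98), an RNA-binding protein, ZNF687 (0.98), a zinc finger protein, ORC1 (0.97), which licenses replication origins, and LYRM2 (0.97). ORC1 lay at 13.3, 16.3 and 10.8 scaled CPM in untreated spheroids on days 0, 3 and 7, 12.0 and 9.53 with CONV-TOPO, and 11.01 and 7.16 with EE-TOPO. Among the members, r with EZH2 was 0.80 for RBBP7, 0.76 for SUZ12 and 0.75 for BMI1, and between -0.42 and 0.24 for the other 6. These are descriptions over 7 points that share libraries and scaling.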

How the data were processed

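The authors made libraries with the TruSeq RNA kit v2, mapped reads to hg38 with STAR, and name DESeq2, edgeR and Partek Flow as their tools. They deposited 1 table of CPM, counts scaled to library totals, for 18144 genes, with 0.0001 added to each value, which was subtracted. Members and lists were chosen with earlier results of these data known. Depth came from the steps of values under 1 CPM, of which 88.2% to 89.7% were whole multiples within 0.02 reads. As the rest were not, no count test was run. Ratios have exact conditional binomial intervals and levels Poisson intervals, both from estimated reads. CPM was scaled by a trimmed mean of M values (factors 0.874 to 1.10). limma 3.58.1 in R 4.3.3 was fitted on log2(scaled CPM + 1) over 6 libraries of days 3 and 7, with treatment and day as terms and 2 residual degrees of freedom, on 14906 genes with at least 0.5 CPM in 2 libraries. Fold changes on this scale understate those of low genes.

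Lengths and GC content came from GENCODE 44, with a value for 17116 genes. The text names all members, their paralogues and overlapping genes, the 3 highest and lowest other Polycomb genes per day, and the genes most like EZH2. From the other lists it names genes with the highest or lowest ratios per day, and TMPRSS2 as a list member. Some genes of the PC-3 marker lists are not reported here. The day-0 library entered no fit. Alternatives covered scaling, pseudocount, filter, baseline, thresholds, libraries in the fit, day term, the trend and leaving libraries out. Summing BMI1 with COMMD3-BMI1 was chosen after seeing the data. Scaling, ratios and figures used Python (3.11.15) with scipy (1.17.1), pandas (2.3.3), numpy (2.4.6) and, for plots, matplotlib (3.10.9). The scripts' statistics were tested on simulated data.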

Additional observations from a re-analysis of the deposited data

Results flagged for a closer look

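EED and JARID2 stood on opposite sides of the same-day untreated value on the 2 days with both regimens. EED stood at 0.750-fold of untreated with CONV-TOPO and 0.803-fold with EE-TOPO on day 3, and at 1.93-fold and 1.39-fold on day 7. Against the mean of the untreated libraries these were 0.831-fold and 0.890-fold, and 1.55-fold and 1.12-fold. Only CONV-TOPO on day 7 lay outside the range of the untreated libraries for EED. JARID2 stood at 1.30-fold and 1.57-fold on day 3, and at 0.628-fold and 0.709-fold on day 7, although its EE-TOPO log2 ratio on day 7 turned to 0.027 with the trend on gene length and GC content removed. CBX2 stood on opposite sides with the 2 regimens on both days. It stood at 1.15-fold with CONV-TOPO and 0.773-fold with EE-TOPO on day 3, and at 1.25-fold and 0.897-fold on day 7. Against the mean of the untreated libraries, however, CBX2 was level with CONV-TOPO on day 3, at 1.004-fold. By that baseline its EE-TOPO value of day 7 turned to 1.04-fold. These differences from untreated were not themselves tested, as each value rests on 1 library per treatment and day.

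A signal outside the 10 members was found in the readthrough gene COMMD3-BMI1, which took 73.3% of the summed CPM of the BMI1 locus with CONV-TOPO on day 7 and 61.9% with EE-TOPO, against at most 2.56% in untreated spheroids.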

How the results depend on the processing

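No paired analysis was possible by replicate number because each treatment and day had 1 library and the labels carry no such numbers, but day was a term of the fit. Without that term limma also called 0 genes, with 366, 143 and 116 at an unadjusted p under 0.05 for EE-TOPO and CONV-TOPO over untreated and for the regimens. Fitted on the 4 compared libraries alone, EE-TOPO against CONV-TOPO called 1 member (CBX2) in place of 0. Of members at least 1.5-fold from untreated, a 2-fold threshold left 0 in place of 1 for CONV-TOPO and 0 in place of 2 for EE-TOPO (day 3), and 1 in place of 6 for CONV-TOPO (day 7). The mean of the 3 untreated libraries as baseline left 0 (EE-TOPO, day 3), 3 (CONV-TOPO, day 7) and, for CONV-TOPO on day 3, 1 that was EZH1 in place of EZH2, and with the trend removed the counts for EE-TOPO on day 3 and CONV-TOPO on day 7 were 1 and 2. Library totals reduced the members whose treated libraries all lay lower from 4 to 2, whereas leaving out 1 library gave 4 to 5. Summing BMI1 with COMMD3-BMI1, chosen after seeing the data, left the fold counts at 1, 2, 6 and 3. Of 226 alternative values of the members' ratios, 169 moved by less than the counting interval, 53 moved beyond it, and 4 with an interval that left out 1 changed sign. These log2 ratios were JARID2 with EE-TOPO on day 7 (0.027, trend removed), RING1 on day 7 (-0.17 with CONV-TOPO and -0.25 with EE-TOPO, trend removed) and CBX2 with EE-TOPO on day 7 (0.061, mean untreated baseline). Ratios to untreated whose interval held 1 changed sign for RNF2 and EZH1 with EE-TOPO on day 7 (0.28, trend removed, and -0.22, library totals), RNF2 with EE-TOPO on day 3 (-0.0080, mean untreated baseline) and SUZ12 on day 3 (0.0089 with CONV-TOPO, trend removed, and 0.037 with EE-TOPO, library totals). The cause of these changes was not tested. Depth limits the intervals most for RNF2, EZH1 and EED, which had 102 to 324 estimated reads per library.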
